A study of Rattus norvegicus with 3 samples.

Results

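Cd69, Cd5, Tox, Nr4a1, Nr4a3, Egr2, Egr3 and Itm2a are 8 genes switched on or raised when a thymocyte's T cell receptor (TCR) is engaged. They were taken by name from the 34034 genes counted in the thymocyte library of a rat thymus study, and all 8 were found. Their levels were read in the 9 labels of the authors that span selection. These were double-positive cells (DP), Pre DP-sig, DP-sig, Immature CD4-1, CD4-2, CD8-1 and CD8-2, and AgoSel1 and AgoSel2. The names stand, by their wording, for DP cells that carry a signal, for early single-positive cells and for agonist-selected cells.

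Thymocytes that have made both TCR chains carry CD4 and CD8 together and die unless the receptor binds self peptide on MHC. Weak binding leads to positive selection, and strong binding leads to deletion or to agonist selection into lineages such as regulatory T cells. Receptor engagement acts through calcium, Ras and NF-kB pathways. It turns on immediate early transcription factors within a short time and later raises surface proteins that mark a selected cell. Cd69 encodes a surface lectin that holds cells in the thymus by removing the S1P receptor from the surface. Cd5 encodes an inhibitory receptor whose surface amount follows the strength of self recognition. Itm2a encodes a membrane protein raised in positive selection. Nr4a1 (Nur77) and Nr4a3 encode orphan nuclear receptors tied to negative selection and to regulatory T cells. Egr2 and Egr3 encode zinc finger factors downstream of Ras, and Tox encodes an HMG box factor needed for the CD4 lineage.

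The animals were Lewis rats, an inbred strain, 8 weeks old, and the labels give no treatment, genotype change or sex. Thymocytes were freed with collagenase D and DNase I and measured as 1 droplet library, and a separate library held stromal cells sorted as negative for CD45, the surface protein of blood-derived cells. A section measured by spatial transcriptomics belongs to the same study and is not used here. How many animals each library pools is not given in the sources used here. With 1 library per kind of sample there was no replicate, so no test was run. Every interval is a 95% interval for counting error only. Cells were labelled by the authors with the help of mouse references and from these same counts, so differences between labels are descriptions.

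The thymocyte library held 8546 annotated barcodes of 8574, with 64440495 UMIs (unique molecular identifiers, each counting 1 captured RNA molecule) and a median of 3994 UMIs per cell. The 9 labels held 6442 cells, 5202 of them DP, and the others between 58 (AgoSel2) and 325 (Pre DP-sig). Median depth ran from 3206 UMIs in DP to 11328 in AgoSel2, and the median share of mitochondrial UMIs was 5.22% in DP and 2.81% in AgoSel2. With only cells of at most 5% mitochondrial UMIs, 17 of 130 ratios between labels moved outside their intervals. Beyond this, the part of mitochondrial share in the differences was not tested. Levels are given as CPM (counts per 1000000 UMIs of a label) and, for shares of cells, after thinning each cell to 1000 UMIs. Of the annotated barcodes, 28 were also annotated in the stromal library, and no ratio below moved beyond its interval without them. The summed level of 10 myeloid and dendritic markers was 1.85 to 10.1 CPM in the 9 labels, against 9285 CPM in the B+myeloid label. The 6 B cell markers summed to 0.776 to 92.7 CPM in the 9 labels, against 698 CPM in the B+myeloid label.

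The label DP matched its defining genes, with Cd4 at 1350.1 CPM, Cd8a at 1497 CPM and the recombinase gene Rag1 at 1952 CPM. DP-sig did not hold DP levels of these genes, with Cd4 at 98.6 CPM, Cd8a at 234 CPM, Cd8b at 90.0 CPM and Rag1 at 34.9 CPM. Coreceptor transcripts thus went against the DP in that name, and DP-sig is used here as the authors' label only. Pre DP-sig lay between, with Cd4 at 393 CPM and Rag1 at 154 CPM. Immature CD8-1 held Cd4 at 307 CPM, above the 242 CPM of Immature CD4-1, so Cd4 went against its name. Its Cd8a, at 489 against 147 CPM, and its Cd8b, at 128 against 40.4 CPM, went with the name. Cd4 was at 70.2 CPM in Immature CD8-2 and 369 CPM in Immature CD4-2. The Immature names are likewise used as labels only.

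The promoters of 3 members are shown because they carry, in the proximal window, letters known as targets of signal-dependent factors. The RefSeq table of GRCr8 held a promoter for 4 of the 8 members (Cd5, Nr4a1, Egr2 and Itm2a), each from 250 bases before to 50 bases after the start. Nr4a1 lies on chr7:134259888-134260187 (plus strand), Egr2 on chr20:21054392-21054691 (minus strand) and Itm2a on chrX:76565095-76565394 (minus strand). Sequences run 5′ to 3′ on the gene's strand. Capitals mark TGCGTCA, a variant of the site of CREB and AP-1 factors, the core TGACG of that site, read here on the other strand as CGTCA, and the CArG box, the site of serum response factor.
Nr4a1: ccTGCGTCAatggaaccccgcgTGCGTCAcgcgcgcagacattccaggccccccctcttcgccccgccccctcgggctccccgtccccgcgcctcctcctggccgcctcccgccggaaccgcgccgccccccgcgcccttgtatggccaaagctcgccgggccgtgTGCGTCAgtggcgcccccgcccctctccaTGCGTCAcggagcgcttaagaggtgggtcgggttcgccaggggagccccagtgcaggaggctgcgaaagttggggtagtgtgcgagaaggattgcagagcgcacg
Egr2: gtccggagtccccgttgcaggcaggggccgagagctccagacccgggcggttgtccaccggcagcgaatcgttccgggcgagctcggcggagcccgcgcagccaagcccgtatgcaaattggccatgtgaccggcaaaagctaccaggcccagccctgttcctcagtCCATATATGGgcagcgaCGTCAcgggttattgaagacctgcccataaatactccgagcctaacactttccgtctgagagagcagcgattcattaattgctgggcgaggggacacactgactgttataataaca
Itm2a: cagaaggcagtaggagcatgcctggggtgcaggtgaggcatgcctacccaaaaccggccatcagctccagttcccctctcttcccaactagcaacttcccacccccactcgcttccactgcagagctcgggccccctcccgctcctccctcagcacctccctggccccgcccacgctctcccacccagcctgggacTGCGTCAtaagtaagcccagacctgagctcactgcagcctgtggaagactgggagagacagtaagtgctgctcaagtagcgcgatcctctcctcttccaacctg

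The Nr4a1 window held 4 matches to TGCGTCA, starting at −248, −228, −84 and −55 from the start. A match to TGCGTCA on either strand was present in 1.90% of 33469 promoters of the same length, and 4 or more were present in 1 of them, that of Nr4a1 itself. Each of these matches contains the core TGACG, which 21.2% of promoters held. The Itm2a window held 1 TGCGTCA at −54. The Egr2 window held 1 CArG box at −83, present in 1.64% of promoters, and 1 core TGACG at −66. Nr4a1 and Itm2a each held 1 match to the EGR site GCGNGGGCG, present in 4.98% of promoters and starting at −73 and −83, so the window of a member contained the letters that other members bind. Cd5 held 2 matches to the E-box CAGGTG (at least 1 in 18.8% of promoters) and none to the sites marked above. A match describes letters and shows no binding, and no match says only that the letters are not in the window.

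In DP-sig all members were above DP. Of the 6 members with at least 20 UMIs over both labels, 6 were at least 2-fold higher in DP-sig, where 9.80% of the 12327 genes counted were. Their median log2 ratio was 3.89, against 0.00 for all genes counted. The 2 members under the count minimum were Egr2 and Egr3, which had 2 UMIs each in all DP cells.

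Of the surface proteins, Cd69 was at 5.55 CPM in DP (4.54 to 6.72) and at 193 CPM in DP-sig (170.0 to 219), a ratio of 34.8 (27.7 to 43.7). After thinning, 0.290% of DP cells and 16.3% of DP-sig cells had a Cd69 UMI. Itm2a was at 12.6 CPM in DP and 474 CPM in DP-sig, a ratio of 37.5 (32.3 to 43.6). Over the DP label as a whole Itm2a, with a UMI in 2.94% of cells at a median depth of 3206 UMIs, was below the B+myeloid label (21.8 CPM, 7.06% of cells, median depth 11506 UMIs). Cd69, Nr4a1 and Nr4a3 were also lower in DP than in B+myeloid, which held 106, 76.1 and 77.4 CPM of them. B+myeloid is not known to lack these genes, so the part of free RNA in their DP levels was not tested. Cd5 differed least, at 102 CPM in DP and 363 CPM in DP-sig, a ratio of 3.55 (3.21 to 3.93). Cd5 was well above the 14.2 CPM of B+myeloid in DP itself, with a UMI in 9.97% of thinned DP cells and 0.617% of thinned B+myeloid cells.

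Among the nuclear factors, Tox was at 215 CPM in DP and 3352 CPM in DP-sig, a ratio of 15.6 (14.9 to 16.3). A Tox UMI was present in 11.2% of thinned DP cells and 89.8% of thinned DP-sig cells, and at full depth in 292 of 295 DP-sig cells. Nr4a1 was at 24.1 and 338 CPM, a ratio of 14.0 (12.3 to 16.0), and Nr4a3 at 6.19 and 79.2 CPM, a ratio of 12.8 (9.81 to 16.7). Fewer cells held these factors than Tox, with an Nr4a1 UMI in 59 and an Nr4a3 UMI in 5.76% of the 295 thinned DP-sig cells. Egr2 had 14 UMIs in 295 DP-sig cells against 2 in 5202 DP cells, a ratio of 103 with an interval of 23.4 to 452. Egr3 had 15 against 2 UMIs, a ratio of 110.1 (25.2 to 481). Both EGR ratios rest on so few DP molecules that only their direction can be read.

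**Figure D1:**
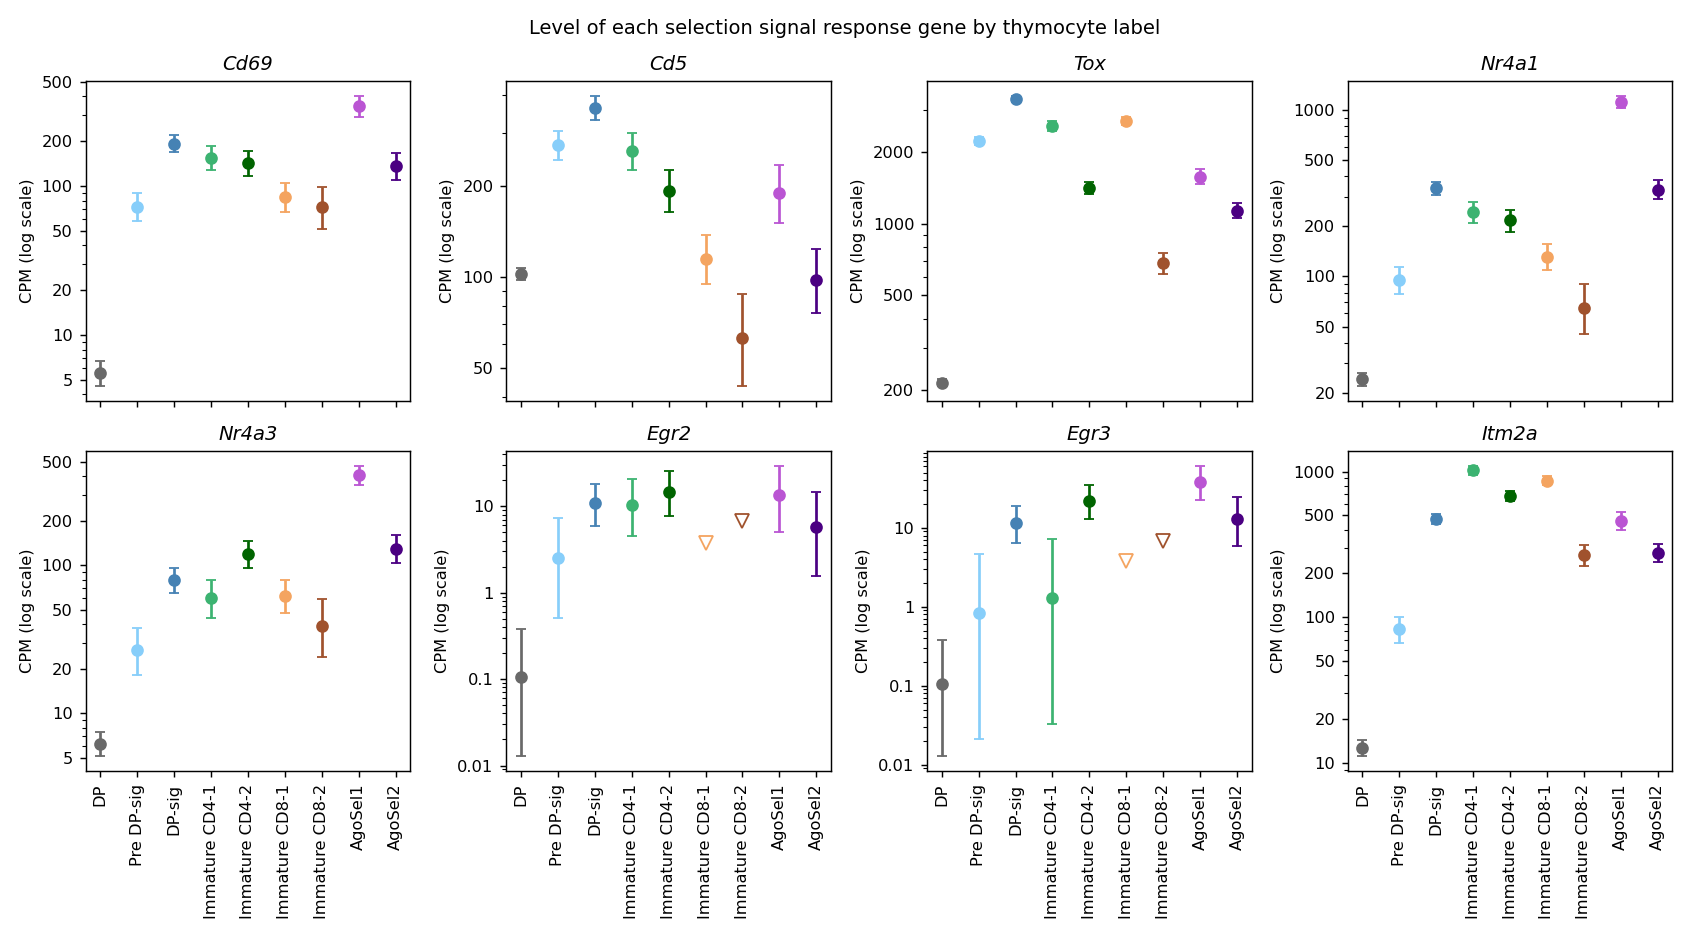
Level of each gene in CPM (log scale, a different range per gene) in the 9 labels of the thymocyte library; points are summed UMIs, bars 95% Poisson intervals, and open triangles the upper limits where no UMI was counted. DP is the lowest label for Cd69, Tox, Nr4a1, Nr4a3 and Itm2a, AgoSel1 the highest for Cd69, Nr4a1, Nr4a3 and Egr3, and neither Egr gene has a UMI in the Immature CD8 labels.

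The DP label contained a small set of cells that the authors' clustering placed elsewhere. These 78 cells (1.50% of DP) belonged to the cluster Early SP and held 50.5% of the Cd69 UMIs of DP, 44.4% of the Itm2a UMIs and 23.9% of the Tox UMIs, but 3.72% of the Cd5 UMIs. In them Cd69 was at 97.4 CPM, against 3.50 CPM in DP cells of cluster DP1 and 1.55 CPM in those of cluster DP2. Their Rag1 level of 935 CPM was still far above the 34.9 CPM of DP-sig. Their median depth was 6458 UMIs, against 3529 in DP cells of cluster DP1 and 2826 in those of cluster DP2. Whether droplets holding several cells are among them was not tested. Cells whose label and cluster differ are here DP cells outside clusters DP1 and DP2 and cells of other labels inside those clusters. Leaving them out gave a ratio of DP-sig to DP of 68.9 for Cd69 and 67.2 for Itm2a. Thinning alone gave 62.8 for Cd69. Keeping only cells with at most 5% mitochondrial UMIs lowered the ratio of DP-sig to DP below its interval for 4 members. It was then 26.1 for Cd69, 12.6 for Tox, 11.7 for Nr4a1 and 3.13 for Cd5, while Itm2a and Nr4a3 stayed within theirs.

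On the ratio scale, Cd69, Tox and Cd5 differed more between DP and Pre DP-sig than between Pre DP-sig and DP-sig. For Itm2a, Nr4a1 and Nr4a3 the intervals of both steps overlapped, so the order of the steps was not settled. Compared with DP, the 6 members counted were all at least 2-fold higher in Pre DP-sig, where 6.25% of the 12296 genes counted were. Cd69 was at 72.5 CPM, a ratio of 13.1 (9.83 to 17.3), Tox at 2229 CPM, a ratio of 10.4 (9.88 to 10.9), and Itm2a at 82.5 CPM, a ratio of 6.53 (5.16 to 8.25). Nr4a3 was at 26.7 CPM, 4.31 times DP, and Nr4a1 was 3.95 times DP. Cd5 was at 273 CPM, a ratio of 2.67. Egr2 and Egr3 had 3 UMIs and 1 UMI in the 325 cells.

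Going on from Pre DP-sig to DP-sig, 4 of the 6 members counted were at least 2-fold higher, where 3.59% of the 8422 genes counted were. These were Itm2a at 5.75 times (4.65 to 7.11), Nr4a1 at 3.55 times (2.89 to 4.37), Nr4a3 at 2.97 times (2.00 to 4.42) and Cd69 at 2.67 times (2.09 to 3.40). Tox at 1.50 times and Cd5 at 1.33 times fell short of 2-fold, with intervals above 1. Leaving out cells whose label and cluster differ took away the 145 Pre DP-sig cells of cluster DP1 and the 33 of cluster DP2. These were lower in Cd69, Itm2a, Nr4a1 and Nr4a3 than the 146 of cluster Early SP. For these genes a larger first and a smaller second step were thus built into this alternative. With it the 4 calls became 2, with Cd69 at 1.93 and Nr4a3 at 1.62 times. The same change gave ratios of Pre DP-sig to DP of 35.8 for Cd69, 16.8 for Itm2a, 15.7 for Tox, 7.87 for Nr4a3 and 5.94 for Nr4a1. The second step was then 3.99 for Itm2a and 2.72 for Nr4a1. After thinning, Nr4a1 went the other way, with 3.09 for the first step and 5.04 for the second.

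**Figure D2:**
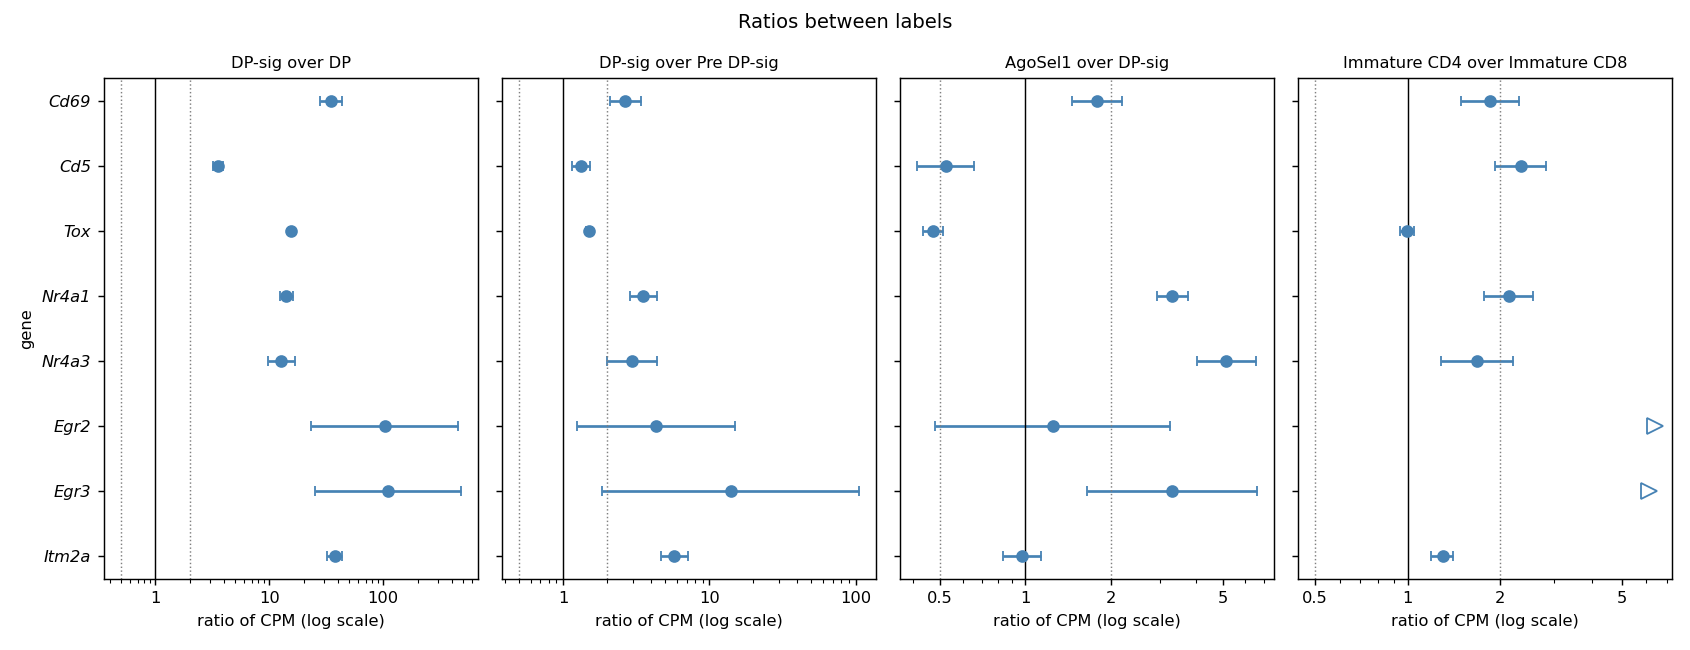
Ratios of CPM (log scale, a different range per panel) for the 8 genes in 4 comparisons of labels; points are ratios, bars 95% intervals for counting error, open triangles lower bounds against a label with no UMI, and dotted lines 2-fold. The members lie above 1 in the first comparison and on both sides of 1 in the comparison of AgoSel1 with DP-sig, where Nr4a3 reaches 5.14 and Tox 0.471.

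Pre DP-sig was itself mixed by cluster. In 145 Pre DP-sig cells of cluster DP1, Cd69 was at 41.7 CPM, Itm2a at 45.7 CPM and Nr4a3 at 5.96 CPM. In 146 Pre DP-sig cells of cluster Early SP, Cd69 was at 101 CPM, Itm2a at 121 CPM and Nr4a3 at 48.7 CPM. Cd5 went the other way, at 299.8 CPM in DP1 (254 to 352) and 234 CPM in Early SP (196 to 276), with intervals that overlap. Tox was at 1527 CPM in DP1 and 2657 CPM in Early SP. Rag1 was lower in the Early SP cells, at 67.2 CPM against 191 CPM. The 33 Pre DP-sig cells of cluster DP2 had Tox at 3223 CPM (2879.7 to 3596), above the Early SP cells, and Cd5 at 383 CPM (271 to 525). Low Tox was thus not shared by both DP clusters.

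**Figure D3:**
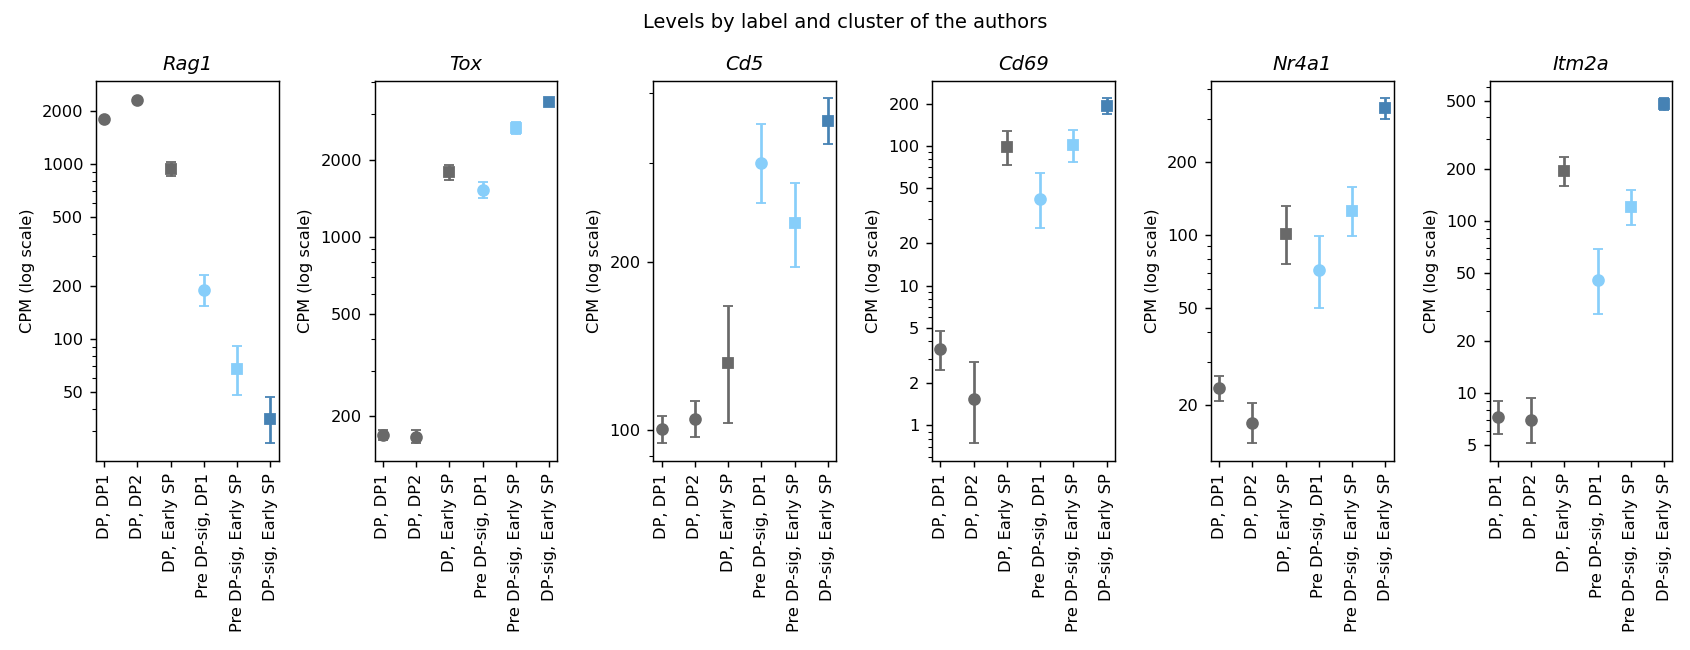
Levels in CPM (log scale, a different range per gene) of Rag1 and 5 members in cells grouped by label and cluster of the authors; points are summed UMIs, bars 95% Poisson intervals, and squares mark cluster Early SP. The 78 DP cells of cluster Early SP (Cd69 at 97.4 CPM) lie between the plotted Pre DP-sig groups for Cd69, Tox and Nr4a1. They lie above both groups for Itm2a (195 against 45.7 and 121 CPM) and near the other DP cells for Cd5.

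Members were found together in single cells more often in the other labels of the 9 than in DP, without a steady rise along the labels. At 1000 UMIs per cell, 3 or more members had a UMI in 3 of 5164 DP cells (0.0581%), in 5.23% of Pre DP-sig cells and in 25.8% of DP-sig cells. The share was highest in AgoSel1 at 50.0% (37.8 to 62.2) and stood at 28.6% in Immature CD4-1, 19.6% in Immature CD8-1 and 3.23% in Immature CD8-2. It was 15.5% in AgoSel2, 2.48% in Mature CD4-1 and 1.10% in Mature CD8-1. Without thinning it was 2.36% in DP, 77.3% in DP-sig and 88.6% in AgoSel1, since deeper cells show more genes. Within a label, some members were more often found in the same cells. In DP, 15.0% of thinned cells with a Cd5 UMI had a Tox UMI (12.0 to 18.3), against 10.8% of those without (9.94 to 11.7). For this pair the shares were 62.5% and 69.4% in Pre DP-sig and 89.3% and 90.0% in DP-sig. They were 88.0% and 86.1% in Immature CD4-1 and 82.6% and 82.5% in Immature CD8-1. Read the other way in AgoSel1, 18.5% of cells with a Tox UMI had a Cd5 UMI, against 0% of those without. A Cd69 UMI was present in 1.03% of DP cells with a Tox UMI (0.381 to 2.24) and in 0.196% of those without (0.0898 to 0.372). Only 6 DP cells held both. The DP cells of cluster Early SP held 50.5% of the Cd69 and 23.9% of the Tox UMIs of DP, and their part was not tested. In AgoSel1, thinned cells with an Nr4a1 UMI had an Nr4a3 UMI in 37.8% of cases (22.5 to 55.2), against 9.09% without (1.92 to 24.3), intervals that overlap slightly. In DP-sig, 39.0% of cells with an Nr4a1 UMI had an Itm2a UMI (26.5 to 52.6), against 22.5% of those without (17.3 to 28.3), intervals that also overlap. The same shares were 60.9% and 45.6% in Immature CD8-1, 59.1% and 56.8% in Immature CD4-1, and 32.4% and 27.3% in AgoSel1. In Pre DP-sig, 0% of 20 cells with an Itm2a UMI had an Nr4a1 UMI, against 6.23% of those without. Cd69 and Cd5 were not found together more often in DP-sig, where 25.0% of cells with and 29.1% of cells without a Cd69 UMI had a Cd5 UMI.

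**Figure D4:**
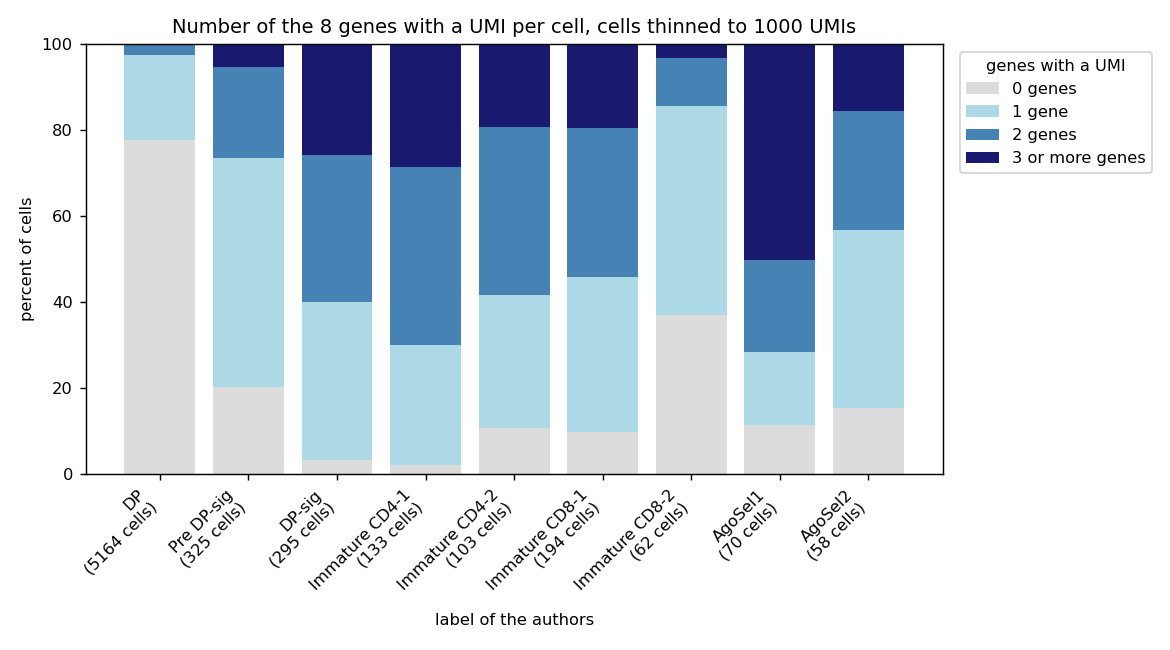
Percent of cells of each label with a UMI of 0, 1, 2 or 3 and more of the 8 genes, each cell thinned to 1000 UMIs and shallower cells left out. The darkest part, 3 or more genes, is 0.0581% in DP, 25.8% in DP-sig and 50.0% in AgoSel1.

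After DP-sig the members differed in direction. In the pooled Immature CD4 labels, none of the 8 members was at least 2-fold lower than in DP-sig, where 5.53% of the 8738 genes counted were, and none was at least 2-fold higher, where 4.60% were. Tox was at 0.589 times DP-sig, Cd5 at 0.621, Nr4a1 at 0.681 and Cd69 at 0.768, all with intervals under 1. Itm2a was higher, at 1.79 times (1.63 to 1.97), and passed 2-fold after thinning (2.25). Nr4a3 at 1.14, Egr2 at 1.16 and Egr3 at 1.03 times had intervals that hold 1. Itm2a reached its highest level of all labels in Immature CD4-1 at 1027 CPM (956 to 1101), with a UMI in 57.1% of thinned cells.

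In the pooled Immature CD8 labels, 3 of the 6 members counted were at least 2-fold lower than in DP-sig, where 6.79% of the 8692 genes counted were. Cd5 was at 0.265 times (0.221 to 0.319), Nr4a1 at 0.319 (0.266 to 0.381) and Cd69 at 0.414 (0.333 to 0.514). Tox, at 0.591, and Nr4a3, at 0.679, were lower by less, and Itm2a was 1.38 times DP-sig (1.25 to 1.53). Thinning took Nr4a3 to 0.451. Egr2 and Egr3 had no UMI in the 256 cells of these labels, against 14 and 15 UMIs in DP-sig. By a floor of 3 UMIs over the group, each was at least 5.52-fold lower.

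Set against each other, the pooled CD4 labels were above the pooled CD8 labels in every member but Tox. Of 7 members counted, 3 were at least 2-fold higher in CD4, where 2.57% of the 8842 genes counted were. Cd5 stood at 2.34 times (1.93 to 2.83) and Nr4a1 at 2.14 times (1.78 to 2.57). Egr2, with 20 UMIs against 0, stood at 6.42 times when the 0 was set to 3 UMIs. Egr3, 1 UMI short of the minimum, had 19 UMIs against 0. Cd69 at 1.86, Nr4a3 at 1.68 and Itm2a at 1.30 times were higher by less, and thinning left Cd69 at 1.21 and raised Nr4a3 to 3.01. Tox was even, at 0.997 times (0.948 to 1.05). Of the Egr3 UMIs in Immature CD4-2, 55.6% came from 1 cell, which left 9.93 CPM without it.

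The earlier and later pairs of labels gave different values. In Immature CD4-1 against Immature CD8-1, Cd5 was at 2.27 times (1.80 to 2.86), Nr4a1 at 1.86, Cd69 at 1.84 and Itm2a at 1.18 times. Nr4a3, at 0.967 (0.659 to 1.42), and Tox, at 0.955 times, had intervals that hold 1. In Immature CD4-2 against Immature CD8-2, 5 of 6 members counted were at least 2-fold higher, where 6.73% of genes counted were: Nr4a1 at 3.35, Cd5 and Nr4a3 at 3.06 each, Itm2a at 2.55 and Tox at 2.06 times. Tox was at 1.88 times when totals left out mitochondrial, ribosomal and haemoglobin genes. Tox and Itm2a were lower in the later CD8 label, with Immature CD8-2 at 0.254 times Immature CD8-1 for Tox (0.228 to 0.283) and 0.309 times for Itm2a (0.259 to 0.368). In the CD4 branch the same step gave 0.548 for Tox and 0.665 for Itm2a. Nr4a3 ran against them there, at 1.98 times (1.40 to 2.82), with 119 CPM in Immature CD4-2 and 59.9 CPM in Immature CD4-1. After thinning it was at 5.17 times, on 20 against 5 UMIs. Cd5 was at 0.738 times in this step and at 1.15 times after thinning (24 against 27 UMIs), so its direction was not settled.

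Of the agonist-selected labels, AgoSel1 but not AgoSel2 carried the highest Nr4a1 and Nr4a3 levels among the labels of at least 20 cells. The pooled AgoSel labels had 1 member at least 2-fold above DP-sig, where 6.65% of the 8478 genes counted were, and 2 at least 2-fold below, where 7.30% were. The higher one was Nr4a3 at 2.99 times (2.38 to 3.76), and the lower ones were Cd5 at 0.367 (0.306 to 0.441) and Tox at 0.390 times (0.368 to 0.414). Nr4a1 at 1.88 and Egr3 at 1.96 times stood just under 2-fold, and Nr4a1 passed it under 4 of the alternatives (2.66 after thinning) and was at 1.48 times in cells with at most 5% mitochondrial UMIs. Itm2a had no settled direction, at 0.736 times as pooled, 1.16 after thinning and 1.03 as the mean over cells. Cd5 was at 0.517 after thinning.

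Between the AgoSel labels the members differed, and AgoSel1 held the peak. Nr4a1 was at 1117 CPM in AgoSel1 (1021 to 1219.9) and 331 CPM in AgoSel2 (289.9 to 377), against 338 CPM in DP-sig. Nr4a3 was at 407 CPM and 129 CPM, against 79.2 CPM in DP-sig. Relative to DP-sig, 3 members were at least 2-fold higher in AgoSel1, where 4.23% of genes counted were: Nr4a3 at 5.14 (4.03 to 6.55), Nr4a1 at 3.31 (2.91 to 3.76) and Egr3 at 3.30 times (1.65 to 6.61). Egr3 was at 1.66 times when cells above 5% mitochondrial UMIs were left out. Cd69, at 346 CPM in AgoSel1, was 1.79 times DP-sig and 2.42 times after thinning. The 1 member at least 2-fold lower, where 7.83% of genes were, was Tox at 0.471 times, which 4 of the alternatives put between 0.508 and 0.526.

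As pooled counts, AgoSel2 was lower than AgoSel1 in all 8 members, with an Egr2 difference of 4 against 6 UMIs, and 4 of 7 counted were at least 2-fold lower, where 6.84% of genes counted were. These were Nr4a1 at 0.297, Nr4a3 at 0.317, Egr3 at 0.336 and Cd69 at 0.394 times. Cd5, at 0.513 times, turned to 1.21 after thinning, on only 12 UMIs in each label. AgoSel2 cells were the deepest of the 9 labels. AgoSel1 itself was split by cluster, with Nr4a1 at 1801 CPM in its 38 Early SP cells and 567 CPM in its 32 Mature SP cells. Cd69 followed, at 522 and 204 CPM, and Tox, at 2049 and 1199 CPM. B cell markers were uneven over these labels. Cd79a had 38 UMIs in 7 of 70 AgoSel1 cells (85.9 CPM), while Cd79b and Ms4a1 had none, and Cd79a was at 0 in DP-sig. In AgoSel2 all 37 B cell marker UMIs were of Cd79a. Cd79a was also at 271 CPM in Pre-Treg and 145 CPM in Mature CD4-1, again without Cd79b or Ms4a1. A filter on these markers therefore cannot tell B cells from other cells with Cd79a. With cells that held a B cell or myeloid marker left out, 3 members were at least 2-fold above DP-sig in the AgoSel labels, Nr4a1 at 2.23 and Egr3 at 2.59 times among them. With all cells, 6.65% of genes counted were.

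Over all 21 labels of at least 20 cells, the members fell into different orders. AgoSel1 was highest for Cd69 (346 CPM, 1.50 times the next label, Treg, interval 1.14 to 1.98), for Nr4a1 (3.31 times the next, DP-sig) and for Nr4a3. DP-sig was highest for Cd5 (363 CPM) and Tox (3352 CPM, 1.24 times Immature CD8-1). Immature CD4-1 was highest for Itm2a, at 1.18 times Immature CD8-1 (1.07 to 1.30). The top of Egr2 (Immature CD4-2, 12 UMIs) and Egr3 (intCD4, 15 UMIs, 66.7% of them from 1 cell) could not be told from the labels next to them. Most neighbours in the order did not differ beyond counting error: 16 of 20 pairs held 1 in their interval for Cd69 and Cd5, 18 of 20 for Nr4a1 and Nr4a3, 10 for Itm2a and 7 for Tox. The 9 labels held 69.8% of the Itm2a UMIs of the library and 29.9% of its Nr4a3 UMIs, since DN and cycling DP cells (DP-P) held 587 and 590 Nr4a3 UMIs at 54.2 and 34.5 CPM.

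**Figure D5:**
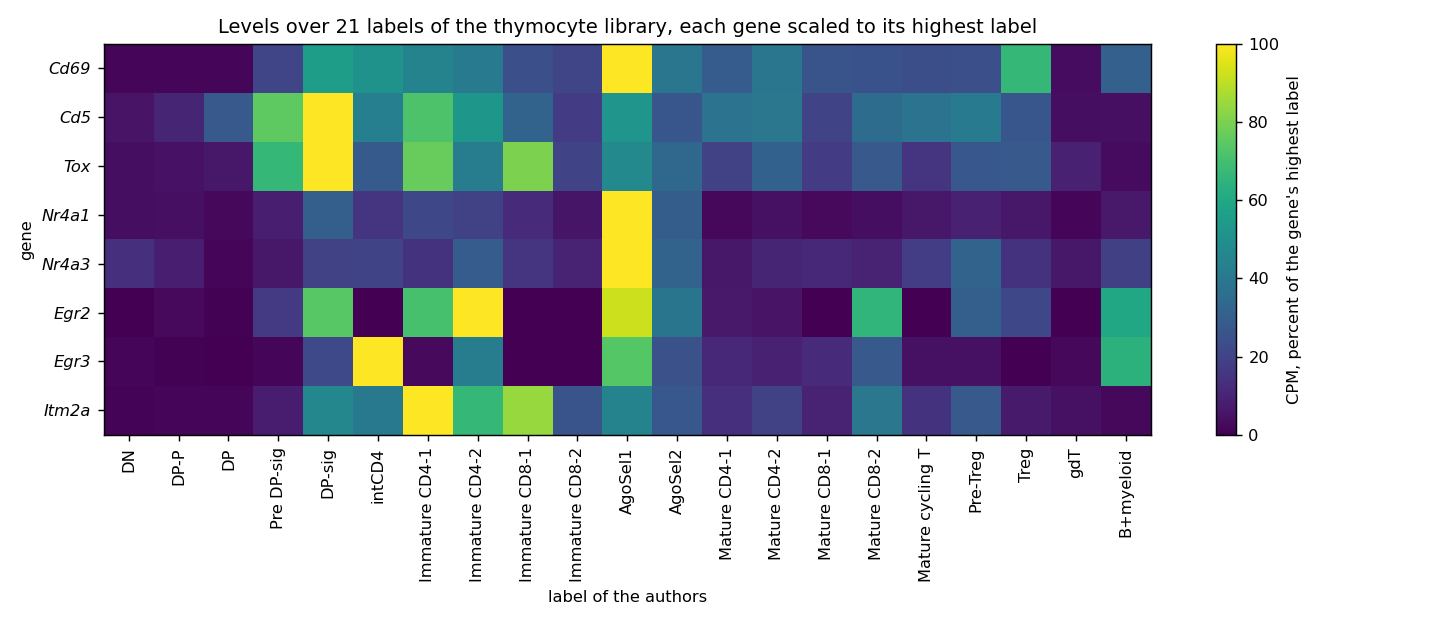
Level of each gene in 21 labels of the thymocyte library as percent of the CPM in that gene's highest label. Nr4a1, Nr4a3 and Cd69 peak in AgoSel1, Cd5 and Tox in DP-sig and Itm2a in Immature CD4-1, while DN, DP-P and gdT are dark for most genes; Egr2 and Egr3 rest on few UMIs.

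In mature cells the members separated again. In Mature CD4-1 against Immature CD4-2, 5 of 7 members counted were at least 2-fold lower, where 8.70% of genes counted were. Nr4a1 was at 23.6 CPM, 0.109 times (0.0711 to 0.167), Itm2a at 141 CPM, 0.206 times, and Nr4a3 at 25.6 CPM, 0.215 times. Egr3 at 0.268 and Tox at 0.462 times completed the 5, with Tox at 0.524 on totals without mitochondrial, ribosomal and haemoglobin genes. Cd5, at 138 CPM, was 0.716 times the immature level. Cd69 was at 100.4 CPM, 0.706 times, and turned to 1.32 times after thinning, on 14 against 9 UMIs. Nr4a1 was thus close to the 24.1 CPM of DP in Mature CD4-1, but not in Mature CD4-2, where it was at 50.2 CPM (38.6 to 64.3). In Mature CD8-1 against Immature CD8-2, Itm2a was at 102 CPM, 0.382 times (0.295 to 0.494). Nr4a1 was at 29.5 CPM, 0.457 times (0.278 to 0.751). It was at 0.227 times after thinning (1 against 3 UMIs) and 0.524 without cells that held a B cell or myeloid marker. Tox differed little there, at 0.850 times, and the intervals of Cd69, Cd5 and Nr4a3 hold 1.

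Other genes of the receptor pathway were read from lists chosen by function. Of 19 counted genes of 21 that TCR signals are known to induce, 11 were at least 2-fold higher in DP-sig than in DP and 1 was lower, where 9.80% and 11.7% of all genes counted were, with a median log2 ratio of 1.37. The highest ratio was for Pdcd1, an inhibitory receptor, at 352 with 24 UMIs against 1 (47.7 to 2604), and the lowest that of Spry1, a Ras pathway inhibitor, at 0.284. Of 15 negative regulators of TCR signalling, which share with Cd5 the damping of the receptor, 3 were higher and 1 lower, from Ptpn6 (the phosphatase SHP-1) at 9.25 times to Themis at 0.434. Of 13 proximal signalling genes, 2 were higher and none lower, from the adaptor Lcp2 at 3.38 to the kinase Lck at 0.638 times. Of 10 preselection genes counted, all were at least 2-fold lower, from Arpp21 at 0.378 to Rag2 at 0.0144 times. Of 11 transcription factors of positive selection counted, 3 were higher, led by the Tox relative Tox2 at 29.6 times, and the lowest was Bcl11b at 0.799. Of 9 maturation and egress genes, 5 were higher, from the chemokine receptor Ccr4 at 36.5 times to Cxcr4 at 0.763. Of 9 agonist selection genes, 5 were higher and 2 lower, from Relb, an NF-kB subunit, at 14.7 times to Il2ra at 0.311.

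Against DP-sig, the AgoSel labels had 11 of 12 counted agonist selection genes and 10 of 18 counted TCR-induced genes at least 2-fold higher. Of the 8478 genes counted, 6.65% were. The median log2 ratios of these lists were 2.54 and 1.24, against −0.14 for all genes. The 8 members had a median of −0.07 in the same comparison. In the CD8 labels against DP-sig, 9 of 18 TCR-induced genes were at least 2-fold lower, where 6.79% of the 8692 genes counted were. The median of the list was −1.02, the same as that of the 6 members counted.

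Genes that enzyme digestion can induce overlap in kind with the members, and their values are given for that reason. Of 15 counted genes of 17 on this list, 5 were at least 2-fold higher in DP-sig than in DP and 1 lower. Of all genes counted, 9.80% were higher and 11.7% lower. The median log2 ratio of the list was 0.37. The extremes were Junb at 9.75 and Btg2 at 0.455 times. Chosen after the values were seen, Fos stood at 4.31, Fosb at 7.21, Ier2 at 3.38 and Hspa8 at 2.20 times, while Jun was at 0.923 and Hspa1b at 1.00. The summed level of the list was 3262 CPM in DP, 3198 in Pre DP-sig, 3786 in DP-sig and 3758 in AgoSel1, and its part in the members' levels was not tested.

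By pattern over 17 labels of at least 50 cells, each member had its own closest genes among 10751. Pearson's r of log2(CPM + 5) was highest for Cd69 with Arid5b (0.945), Junb (0.944) and Il6st (0.943). Cd5 was closest to Itpkb (0.964), Arhgap15 (0.951) and Cnot6l (0.950), and Tox to Tes (0.947), Rap1a (0.939) and Chd3 (0.937). Nr4a1 was closest to Septin11 (0.906), Midn (0.882) and Armcx6 (0.869), and Itm2a to Gpr174 (0.948), Fkbp1a (0.944) and Mllt6 (0.938). Nr4a3 was closest to Arf6 (0.855), Nr4a1 (0.829) and Rel (0.810). Egr2 (Egr1 0.857, Idh1 0.844, Nr4a1 0.817) and Egr3 (Atg16l2 0.821, Sh3bp1 0.797, Mthfs 0.792) rest on few molecules. With Spearman's rho, 0 or 1 of each member's 3 genes stayed among its 3 closest. Among the members themselves r ran from 0.085 (Tox with Egr3) to 0.893 (Tox with Itm2a), with Cd5 and Tox at 0.870 and Cd5 and Nr4a3 at 0.230. The points share 1 library and its depth and free RNA, so these values are descriptions.

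In the stromal library, 411 cells labelled Thymocyte gave a separate reading with another digestion. There Cd69 was at 50.1 CPM, Cd5 at 122, Tox at 579.9, Nr4a1 at 125, Nr4a3 at 68.8 and Itm2a at 275 CPM. Over the thymocyte library as a whole the same genes were at 33.4, 78.1, 440.1, 63.0, 38.8 and 82.1 CPM. All 6 were higher in the stromal library, where the mix of thymocyte stages is not labelled. Cd69 and Cd5 were close to absent from the 21 stromal labels, from which B cell, Myeloid and Thymocyte are left out, with highest levels of 3.56 CPM in the tuft label of epithelium (1 UMI) and 5.71 CPM in mTEC2. Cd69 was at 34.3 CPM in the B cell label of that library and at 6.63 CPM in its Myeloid label. Other members were found in stromal labels too. Itm2a was at 897 CPM in the mesenchymal label TMC2, with a UMI in 96.8% of cells, Nr4a1 at 217 CPM in vascular smooth muscle cells and pericytes, Tox at 72.4 CPM in arterial endothelium and Egr3 at 32.1 CPM in capillary endothelium.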

How the data were processed

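The deposited files hold whole UMI counts per gene and barcode. Their headers name Cell Ranger 8.0.0. The submitters' processing notes name the build mRatBN7.2 and Seurat 5.3.0. The percent of mitochondrial UMIs per cell was given by the authors in a deposited table with the cell labels. The label of a cell was its projected label or, where none was given, its cluster. The 8 members and all lists were chosen with earlier results of these data known.

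UMIs were summed per label of at least 20 cells and given as CPM with exact Poisson intervals. Intervals, at 95%, were Clopper-Pearson for shares of cells and log-normal for ratios. A gene was counted in a comparison with at least 20 UMIs over both labels. Against a label at 0, ratios are bounds from 3 UMIs put in place of the 0. The other count is taken as it stands, so these bounds are not 95% limits. Thinning to 1000 UMIs (seed 7) left out 51 shallower cells. Ratios after thinning rest on fewer UMIs and are given without intervals. No doublet caller was run. Genes named besides the members are the 3 closest by correlation among genes with at least 100 UMIs, and the highest and lowest of each list by the ratio of DP-sig to DP. Genes that check a label and those said to be chosen later are the exceptions. The scripts were tested on simulated data. Python 3.11.15 was used with SciPy 1.17.1, NumPy 2.4.6, matplotlib 3.10.9 and pandas 2.3.3.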

Additional observations from a re-analysis of the deposited data

How the results depend on the processing

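The 7 counts of members past 2-fold were recomputed under each alternative, 84 values in all, and 78 stayed within 1.5 times. The count in DP-sig over Pre DP-sig became 2 without cells whose label and cluster differ. That alternative was chosen after seeing the data and drops the Pre DP-sig cells of clusters DP1 and DP2. The count lower in Immature CD8 than in DP-sig became 5 with no minimum of UMIs, which lets in Egr2 and Egr3. The count in AgoSel over DP-sig became 2 with cells thinned to 1000 UMIs and 3 each with the mean of the cells' CPM, with totals without mitochondrial, ribosomal and haemoglobin genes, and without cells with a B cell or myeloid marker UMI. Of 1282 recomputed ratios, 1144 stayed within the interval of the value reported, 131 moved outside it and 7 changed side of 1 although the reported interval left out 1. Ratios whose reported interval holds 1, among them many of Egr2 and Egr3, have no settled side and are not listed. The 7 were Itm2a in AgoSel over DP-sig (1.16 thinned, 1.03 as mean of cells) and in AgoSel2 over DP-sig (1.03 thinned), and, all thinned, Cd69 in AgoSel2 over DP-sig (1.00) and Mature CD4-1 over Immature CD4-2 (1.32), and Cd5 in AgoSel2 over AgoSel1 (1.21) and Immature CD4-2 over Immature CD4-1 (1.15). Thinned ratios rest on fewer UMIs, such as 12 in each label for Cd5 in AgoSel2 over AgoSel1, and are given without intervals. The cause of the changes was not tested. No paired analysis was possible because there was only 1 sample in a group. Labels from the clusters alone were not run, because no cluster carries the names compared. Depth limits Egr2 and Egr3, with 86 and 200 UMIs in the whole library.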
